A study of Mus musculus with 4 samples.

Results

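The spots described here are 814 of the 9102 spots under tissue in 4 mouse heart sections, and they come from the sections taken 4, 7 and 14 days after myocardial infarction (MI). They were chosen from their own counts and not from their position in the section. In each section, spots with a low share of hemoglobin, at least 500 UMIs (unique molecular identifiers, 1 for each captured mRNA molecule) and few UMIs of skeletal muscle genes were kept, and the 15% of them with the lowest share of Myh6 and Myl2, the alpha myosin heavy chain and ventricular myosin light chain of cardiomyocytes, were taken as injured. These were split at the section's median share of Lyz2, Cd68, Ctss and C1qa into a macrophage-rich set (406 spots in all) and a macrophage-poor set (408 spots). The sets held 125 and 126 of 1674 kept spots on day 4, 129 and 129 of 1721 on day 7, and 152 and 153 of 2036 on day 14. Each section came from 1 adult female ICR mouse, 12 weeks old, whose left anterior descending coronary artery had been ligated permanently, and was cut at 10 µm from fresh frozen heart on a Visium slide. No section of an uninjured heart was used, so the control of each macrophage-rich set is the macrophage-poor set of the same section. Each spot collects RNA from a small group of cells, so the sets are groups of regions and not of cells, and more macrophages cannot be told apart from more RNA per macrophage.

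After an infarct, blood monocytes enter the dying muscle and become macrophages, which take up dead cells and debris, digest them in lysosomes and store or export the lipid and iron that this releases. Macrophages also send growth signals to fibroblasts, which turn into myofibroblasts and lay down the collagen of the scar, and fibroblasts send back colony stimulating factor 1, on which macrophages depend. Resident macrophages of the uninjured heart carry scavenger receptors and form a population apart from the recruited cells. The question addressed here is which genes, beside those that chose the spots, differed between the injured spots with most and with fewest macrophage transcripts, and whether the scar genes did.

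The genes of the rule are given as a description. The median share that split the spots was 0.808%, 0.436% and 0.320% of UMIs in the sections of days 4, 7 and 14. Lyz2, the lysozyme of myeloid cells, was the most abundant of the 4 markers. Its level in the rich against the poor set, in UMIs per 1000000 UMIs (CPM), was 10188 against 4145 on day 4, 7671 against 1876 on day 7 and 6183 against 698 on day 14. Ctss, a lysosomal protease, was at 1728 against 644 on day 4, 1011 against 222 on day 7 and 519 against 69.0 on day 14. The other kept spots of the same sections held 765, 564 and 197 CPM of Lyz2, so the poor set of each section still held more than the rest of the heart. The macrophage-poor spots are thus poorer only among the spots taken as injured. The sets also differed in what was left of the muscle. Myh6 and Myl2 together made up 0.0854% of UMIs in the rich and 0.115% in the poor set on day 4 and 0.145% and 0.192% on day 7, but 0.287% and 1.22% on day 14, where the lowest 15% of spots reached up to a share of 1.68%. On that day 76 poor and 5 rich spots were above a share of 1%. When the day 14 spots were ordered by marker share into 4 bins, the lowest held 1.41% of Myh6+Myl2 and 1140 CPM of Col1a1. The highest held 0.258% and 6799 CPM, so many poor spots of that day still held muscle and little collagen RNA. Whether the day 14 results below come with macrophages or with the muscle left in the poor spots cannot be told apart in the rule's own sets. Median UMIs per spot were 5786 and 6467.5 on day 4, 3110 and 2286 on day 7 and 1357.5 and 1639 on day 14.

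**Figure D1:**
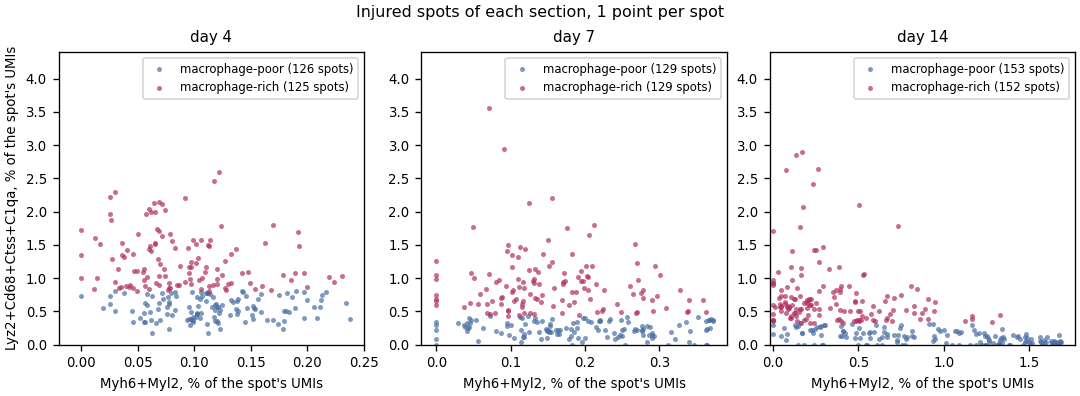
Each point is 1 injured spot, with its share of Myh6+Myl2 UMIs on the horizontal axis (the scale differs between sections) and its share of the 4 macrophage marker genes on the vertical axis, both in percent of the spot's UMIs. The sets overlap in Myh6+Myl2 share on days 4 and 7, while on day 14, 76 of the 81 spots above a share of 1% are macrophage-poor.

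Macrophage genes that the rule did not use were higher in the rich set as well. They share cells with the 4 markers, so they check the label of the spots and are no independent finding. Of 15 such genes (Adgre1, Csf1r, Tyrobp, C1qb and others), 12 were higher in the rich set in all 3 sections, where 20.7% of all 7010 genes tested were, and none was lower in all 3. Their summed level was 4866 against 2962 on day 4, 4109.9 against 2175 on day 7 and 4497 against 1053 on day 14 CPM. Tyrobp, the adaptor of many activating receptors of myeloid cells, was at 1058 against 594 on day 4, 723 against 267 on day 7 and 602 against 130.0 on day 14. C1qc, a chain of complement C1q like the C1qa of the rule, was at 577 against 286 on day 4, 716 against 390.5 on day 7 and 982 against 228 on day 14. The sets of every section were apart for both genes, most widely on day 14.

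UMIs were summed per section and set, and the 6 sums were fitted with edgeR with the section as a block, so that a gene was called when its difference between sets held over the 3 sections beyond their spread. Of the 7010 genes, none was called at an adjusted p under 0.05 (0%), and the lowest adjusted p was 0.0818. At an unadjusted p under 0.05 there were 343 genes higher and 372 lower, and DESeq2 called 14 higher and 21 lower. The sections differed in the size of the ratio, and the median log2 ratio of the study's macrophage list, described below, was 0.65, 0.79 and 1.92 on days 4, 7 and 14. Without the day 14 section edgeR called 146 genes higher and 95 lower, without day 7 it called 5 and 49, and without day 4 none. In the direction of change, 1448 genes (20.7%) were higher and 786 (11.2%) lower in the rich set in all 3 sections.

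The sets were then made more alike in their remaining muscle. Within each section the injured spots were divided into 5 strata of Myh6+Myl2 share, and the median of the marker share was taken within each stratum. The Myh6+Myl2 share of these stratified sets was 0.0979% against 0.103% on day 4, 0.162% against 0.169% on day 7 and 0.768% against 0.898% on day 14. Their pooled marker share was 1.29% against 0.55%, 0.949% against 0.267% and 0.589% against 0.165%. In this comparison edgeR called 171 genes higher (2.44%) and 107 lower (1.53%) in the macrophage-rich set. The spread was pooled over genes there. The weight of the pooled estimate (the prior degrees of freedom) had a median of infinity over genes, against 2 residual degrees of freedom. The p-values thus rest on a spread shared between genes and on 3 mice. DESeq2 called 40 higher and 14 lower, all of them among the calls of edgeR. With 1 section left out, the calls were 62 higher and 13 lower without day 4, 102 and 81 without day 7, and 146 and 80 without day 14. A comparison added after seeing the data, which took only spots with at most 0.3% Myh6+Myl2 in every section (272, 230 and 111 spots), called 165 of 6517 genes higher and 109 lower, and 132 and 69 of these were called in the stratified sets too. In what follows, rose and fell mean called by edgeR between the stratified sets, while levels are those of the sets at the section's median. The test set out first was that of the rule's own sets. The calls were taken from the stratified sets after it was seen that the rule gave none. A level and the fold change beside it thus come from different sets of spots, most of all on day 14. There 113 of the 150 rich stratified spots were in the rich set of the rule. Each count of list members that rose or fell stands beside 2.44% and 1.53% of all genes.

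**Figure D2:**
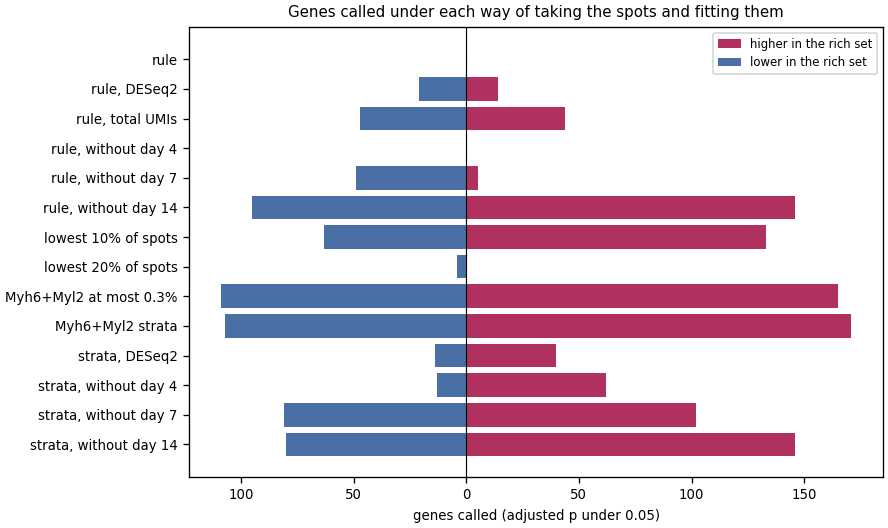
Bars give the number of genes called at an adjusted p under 0.05, higher in the macrophage-rich set to the right and lower to the left of 0, for the rule itself, for other ways of taking the injured spots and for the sets split within Myh6+Myl2 strata. No gene was called with the 3 sections and the split at the median, and 171 higher and 107 lower within the strata.

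Among called genes with 200 or more UMIs and the same direction in 3 sections, the largest rises were mostly in receptors and secreted proteins of macrophages. Outside this filter Cd5l rose more, with a log2 fold change of 2.74. These genes go with the markers that chose the spots, so their rise describes the split, and the size of each ratio is what the values below give. Marco (ENSMUSG00000026390, chr1:120474538-120505024 of GRCm38), a scavenger receptor for particles and bacteria, was at 60.2 against 24.5 on day 4, 82.9 against 12.7 on day 7 and 350.0 against 21.2 on day 14 CPM. Every rich set was above its poor set, and Marco rose between the stratified sets (log2 fold change 2.06, SE 0.26, adjusted p = 4.06e-12). Gpnmb (ENSMUSG00000029816, chr6:49036546-49070929), a glycoprotein of lipid-laden macrophages, was at 589 against 208 on day 4, 426 against 38.1 on day 7 and 109 against 18.6 on day 14, and it rose as well (log2 fold change 1.7, SE 0.19, adjusted p = 1.86e-10). In the rich set Gpnmb was highest on day 4 and Marco on day 14, and with 1 mouse a day neither order was tested. Gpnmb was not called without day 14. Lgals3 (ENSMUSG00000050335, chr14:47367751-47386160), galectin 3, was at 1520.2 against 888 on day 4, 735 against 159 on day 7 and 373 against 39.8 on day 14 and rose (log2 fold change 1.12, SE 0.14, adjusted p = 1.86e-10). Its ratio of sets was smallest on day 4, where the poor set too was rich in it.

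Of 4 Fc gamma receptor genes tested, whose proteins bind antibody-coated particles, Fcgr3 and Fcgr2b rose, and Fcgr1 (log2 fold change 0.73, adjusted p = 0.0868) and Fcgr4 (log2 fold change 0.40, adjusted p = 0.76) were not called. Fcgr3 was at 372 against 177 on day 4, 269.5 against 82.5 on day 7 and 256 against 39.8 on day 14 (log2 fold change 1.19, SE 0.16, adjusted p = 1.86e-10). Fcgr2b, the inhibitory receptor of the family, was at 289 against 143 on day 4, 168 against 41.3 on day 7 and 256 against 47.8 on day 14 (log2 fold change 1.27, SE 0.17, adjusted p = 1.86e-10). Both were higher in the rich set of each section, with counting intervals of the ratio that left out 1. Wfdc17, a small secreted protein of myeloid cells, was at 1136 against 472 on day 4, 601 against 209.5 on day 7 and 828 against 117 on day 14 (log2 fold change 1.3, SE 0.13, adjusted p = 1.52e-18). Mpeg1, the pore-forming perforin 2 of macrophages, was at 632 against 349.7 on day 4, 477 against 156 on day 7 and 331 against 45.1 on day 14 (log2 fold change 1.11, SE 0.15, adjusted p = 6.13e-11). The other genes with the largest rises were Pla2g7, a secreted phospholipase, Cd300c2 and Clec4d, both myeloid receptors, Ms4a6c, and Alox5ap, which leukotriene synthesis needs. Their log2 fold changes ranged from 1.11 for Clec4d to 1.31 for Pla2g7, and DESeq2 did not call Ms4a6c, Clec4d, Gpnmb and Lgals3. Ms4a6c and Clec4d were not called without day 4.

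**Figure D3:**
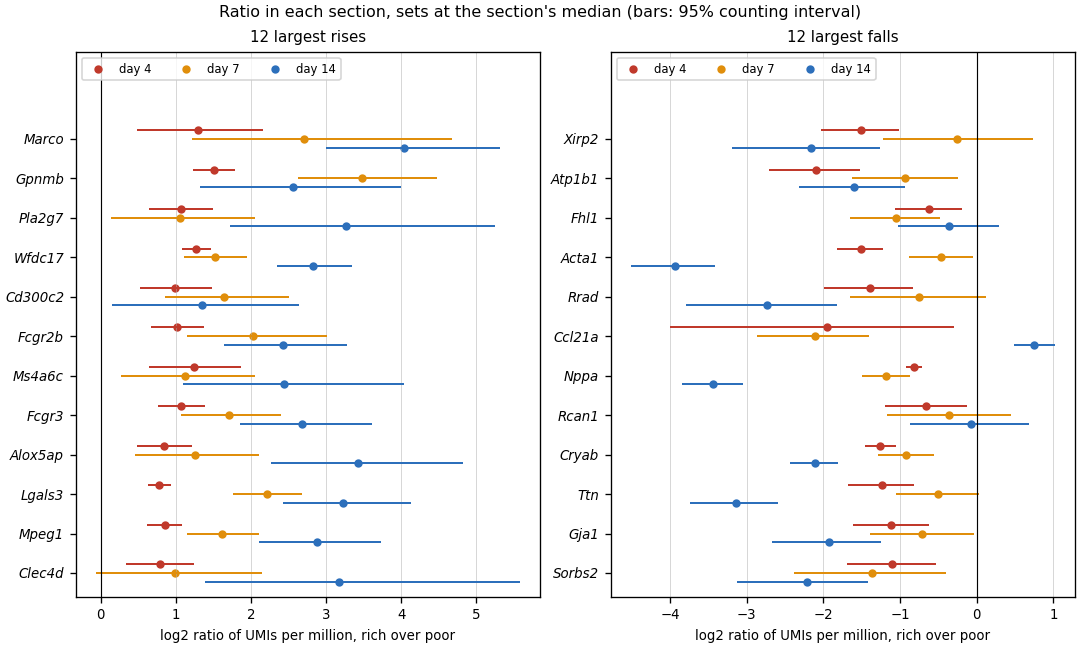
Points are log2 ratios of UMIs per 1000000 between the macrophage-rich and macrophage-poor sets of each section, and bars are 95% counting intervals, for the 12 genes with the largest rises and the 12 with the largest falls between the stratified sets. The sets shown are those at the section's median, where all 12 rises are above 0 in each section and Ccl21a is above 0 on day 14, with a log2 ratio of 0.75.

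PU.1, encoded by Spi1, is the transcription factor that macrophage genes are best known for, and it binds purine-rich sites around GGAA. As a description, the 250 bases before each RefSeq start in GRCm38.p6 were searched for GAGGAAGT on both strands (ACTTCCTC when read on the opposite strand). The motif was in 7 of the 126 genes that rose and have a promoter in the table (5.56%), in 0 of 74 that fell, in 157 of 5601 tested genes (2.8%) and in 755 of all 27025 genes of the table (2.79%). The 7 genes are Arhgap25, C1qc, Pf4, Pira2, Pirb, Selenop and Spp1. The windows of Pira2 and Pirb are near copies of each other, so their matches are not separate, and the shares were not tested. A match is no binding site, and genes without one may still be bound. The windows of C1qc, Pf4 and Spp1 are shown because all 3 are macrophage genes that rose, C1qc and Spp1 with levels given in the text and Pf4, platelet factor 4, at 500.5 against 359 on day 4, 111 against 63.5 on day 7 and 245 against 53.1 on day 14 CPM (log2 fold change 0.90, adjusted p = 6.84e-06). They run 5′ to 3′ on the strand of the gene, with the motif in capitals.
C1qc (chr4:136892915-136893164, strand -): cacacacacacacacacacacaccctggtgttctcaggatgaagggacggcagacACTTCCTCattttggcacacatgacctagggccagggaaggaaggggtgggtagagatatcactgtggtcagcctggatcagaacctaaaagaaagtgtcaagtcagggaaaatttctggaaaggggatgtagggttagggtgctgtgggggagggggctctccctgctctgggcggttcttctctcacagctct
Pf4 (chr5:90772185-90772434, strand +): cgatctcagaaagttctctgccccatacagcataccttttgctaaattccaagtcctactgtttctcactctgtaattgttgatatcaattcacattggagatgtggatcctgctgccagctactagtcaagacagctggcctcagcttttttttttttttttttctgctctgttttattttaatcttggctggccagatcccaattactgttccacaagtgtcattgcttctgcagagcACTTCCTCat
Spp1 (chr5:104434861-104435110, strand +): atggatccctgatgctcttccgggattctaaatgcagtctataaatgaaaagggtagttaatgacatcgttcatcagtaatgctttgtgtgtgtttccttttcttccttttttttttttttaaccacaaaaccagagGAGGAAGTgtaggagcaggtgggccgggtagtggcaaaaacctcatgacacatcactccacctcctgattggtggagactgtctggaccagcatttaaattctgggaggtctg

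The study has a list of macrophage signature genes, made to estimate cell types in bulk RNA. Of its 98 members other than the genes of the rule, 94 were higher in the rich set in all 3 sections and none was lower in all 3, beside 20.7% and 11.2% of all genes. Between the stratified sets 62 of them rose and 0 fell, beside 2.44% and 1.53% of all genes. Without day 4 the number that rose was 30, and with DESeq2 22. The median log2 ratio of its members was 0.65, 0.79 and 1.92 on days 4, 7 and 14 with the split at the median, and 0.65, 0.90 and 0.83 within strata, where day 14 lay between the other days. For all genes tested the medians were -0.011, -0.038 and 0.48 at the section's median and -0.012, -0.036 and 0.095 within strata. The summed level of the list was 31897 against 20968 on day 4, 19515 against 9978 on day 7 and 20057 against 4481 on day 14 CPM, and 3128, 2499 and 1114 in the other kept spots. Members of this list recur in lists below, such as Spp1, Fcgr3, Grn, C3ar1, Ccl6 and Csf1r in those of lipid handling, phagocytosis, lysosomes, complement, chemokines and signalling. The counts of these lists are thus not separate results, and macrophage genes in them go with the markers that chose the spots.

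Genes of lipid handling rose in 9 of 15 cases and none fell, beside 2.44% and 1.53% of all genes. Spp1 (ENSMUSG00000029304, chr5:104435118-104441050), osteopontin, a secreted matrix protein and cytokine of macrophages in injured tissue, was at 5414 against 4251 on day 4, 1428 against 333 on day 7 and 184 against 13.3 on day 14. It was abundant in both sets on day 4 and scarce on day 14, and its log2 ratio was 0.35, 2.1 and 3.8 in the 3 sections, closest on the day with the highest level. It rose between the stratified sets (log2 fold change 1.03, SE 0.16, adjusted p = 2.87e-06). Apoe, the lipid carrier that macrophages secrete, was at 9395 against 4706 on day 4, 11035 against 6937 on day 7 and 9689.9 against 2815 on day 14 and rose too (log2 fold change 0.82, SE 0.12, adjusted p = 1.24e-08). The injured spots of each section were also ordered by marker share and cut into 4 bins of about the same number of spots. From the lowest to the highest bin, Apoe was at 3805, 5873, 6493 and 12631 on day 4 and 5399.9, 8266, 9528 and 12474 on day 7, while Spp1 on day 4 was at 3627, 5058, 5587 and 5222. Apoe was highest in the top bin, whereas Spp1 on day 4 differed little between the upper 3 bins. Cd63, a tetraspanin of lysosomes and among the potential receptors of TIMP1, was at 1277 against 1188 on day 4, 919 against 787 on day 7 and 866 against 342 on day 14 and was not called (log2 fold change 0.11, adjusted p = 0.812).

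Of 10 resident macrophage genes tested, 5 rose and none fell, beside 2.44% and 1.53% of all genes. At the section's median 6 were higher in the rich set in all 3 sections, beside 20.7% of all genes. Selenop, a selenium carrier made by the liver and by resident macrophages, was at 947 against 351 on day 4, 942 against 537 on day 7 and 1641 against 507 on day 14 (log2 fold change 0.99, SE 0.12, adjusted p = 4.48e-12). By bins it was at 316, 397, 551 and 1389.6 on day 4, 493, 574, 769 and 1108 on day 7 and 371, 778, 1223 and 2031 on day 14, higher at each step in the 3 sections. Stab1, a scavenger receptor, was at 480.4 against 296 on day 4, 246 against 260.3 on day 7 and 677 against 146 on day 14 (log2 fold change 0.52, SE 0.14, adjusted p = 0.00966), level on day 7. Genes of antigen presentation on MHC class II rose in 2 of 6 cases, H2-Ab1 at 288 against 237 on day 4, 415 against 321 on day 7 and 516 against 87.5 on day 14 (log2 fold change 0.62, SE 0.15, adjusted p = 0.00156) and H2-Aa at 244 against 203 on day 4, 454 against 302 on day 7 and 561 against 169.8 on day 14 (log2 fold change 0.57, SE 0.14, adjusted p = 0.00361). The sets lay closest on day 4 for both genes.

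Among genes of uptake and digestion, 8 of 13 phagocytic and Fc receptor genes and 10 of 20 lysosome genes rose and none fell. Of all genes 2.44% rose and 1.53% fell. Sirpa, which reads the CD47 signal on other cells, was at 419 against 258 on day 4, 281 against 146 on day 7 and 222 against 71.6 on day 14 (log2 fold change 0.68, adjusted p = 0.000774). Mfge8 and Cd36, both of which bind dying cells or lipid and are also made by other cells of the heart, were not called, with Cd36 at 322 against 275 on day 4, 145 against 232 on day 7 and 207 against 666 on day 14, above both sets in the other kept spots at 856, 959 and 1001. The proteases cathepsin B and D and the sphingolipid activator Psap were the most abundant lysosomal genes. Ctsb was at 5727 against 3459.7 on day 4, 3169.9 against 1739.8 on day 7 and 2529 against 841 on day 14 (log2 fold change 0.76, adjusted p = 1.65e-07). Ctsd was at 5108 against 3211 on day 4, 3405 against 2172 on day 7 and 2164 against 1459 on day 14 (log2 fold change 0.53, adjusted p = 0.000966), and its ratio was alike in the 3 sections. Psap rose by a log2 fold change of 0.73. Of 11 genes of iron, heme and antioxidant defence, 5 rose, beside 2.44% of all genes. Fth1, the heavy chain of the iron store ferritin, was at 9435 against 6150.2 on day 4, 5803 against 2502 on day 7 and 6281 against 2945 on day 14 (log2 fold change 0.64, adjusted p = 3.51e-05), and the light chain Ftl1, whose near copy Ftl1-ps1 also rose and may share its reads, was at 9599 against 6101 on day 4, 5119 against 2454 on day 7 and 4203 against 1342 on day 14 (log2 fold change 0.74, adjusted p = 3.98e-07).

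Complement and chemokine genes rose in part, where 2.44% of all genes rose. Of 11 complement genes 5 rose, among them C3, the central component, at 248 against 186 on day 4, 1262 against 902 on day 7 and 3906 against 743 on day 14 (log2 fold change 0.46, SE 0.12, adjusted p = 0.0102), while Serping1, an inhibitor that fibroblasts make as well, was not called at 484 against 417 on day 4, 779 against 676 on day 7 and 1437 against 496 on day 14. Of 17 chemokine and receptor genes 4 rose. Ccl6, a chemokine of macrophages, was at 824 against 539 on day 4, 350.2 against 156 on day 7 and 786 against 50.4 on day 14 (log2 fold change 1.02, SE 0.14, adjusted p = 1.86e-10), and Ccl9 was at 428 against 303 on day 4, 214 against 130.2 on day 7 and 229.5 against 21.2 on day 14 (log2 fold change 0.60, SE 0.16, adjusted p = 0.00696). Cxcl12, which stromal cells make, was not called at 438 against 336 on day 4, 546 against 517 on day 7 and 418 against 186 on day 14. The 12 interferon response genes had no call in either direction by edgeR or DESeq2 (2 higher and 1 lower at an unadjusted p under 0.05 within strata). Their median log2 ratio was -0.56, 0.44 and 0.90 on days 4, 7 and 14 at the section's median and -0.17, 0.57 and 0.16 within strata. Ifitm3 was level between the sets of day 4, at 1017 against 1009 on day 4, 845 against 565 on day 7 and 978 against 382 on day 14. Of 5 neutrophil and interleukin 1 genes 1 rose, beside 2.44% of all genes. S100a8, an alarmin of neutrophils, was at 38.8 against 31.0 on day 4, 46.1 against 25.4 on day 7 and 452 against 71.6 on day 14 and was not called (log2 fold change 0.32, adjusted p = 0.648), and 87 of its 120 UMIs in the rich set of day 14 came from 5 spots.

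Of the lymphocyte genes 3 of 14 had enough UMIs to be tested. Igkc, the light chain of antibody-secreting cells, was at 100.4 against 9.03 on day 4, 226 against 102 on day 7 and 2096 against 1329 on day 14, and 5 spots held 70 of 75 UMIs in the rich set of day 4 and 89 of 98 on day 7. On day 14, where it was abundant, 5 spots held 329 of 557 UMIs in the rich and 367 of 501 in the poor set. It was not called (adjusted p = 0.997), while Ighm, the heavy chain of IgM, rose (log2 fold change 1.22, SE 0.32, adjusted p = 0.00693). Other antibody genes, outside the list and named after their values were seen, fell. Ighg2b, an IgG heavy chain, was at 16.1 against 38.1 on day 7 and 41.4 against 220.2 on day 14 with 0 UMIs on day 4 (log2 fold change -2.42, adjusted p = 8.91e-09). Jchain, which joins secreted antibodies, was at 2.68 against 0 on day 4, 25.3 against 6.35 on day 7 and 309 against 212 on day 14 with the split at the median and fell within strata (log2 fold change -1.23, adjusted p = 0.00327). The antibody genes thus had no common direction. Ccl5 was lower in the rich set on day 4 and higher on days 7 and 14, at 5.35 against 28.4 on day 4, 82.9 against 15.9 on day 7 and 37.6 against 7.96 on day 14, on few UMIs. None of 11 dendritic and mast cell genes had enough UMIs to be tested.

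**Figure D4:**
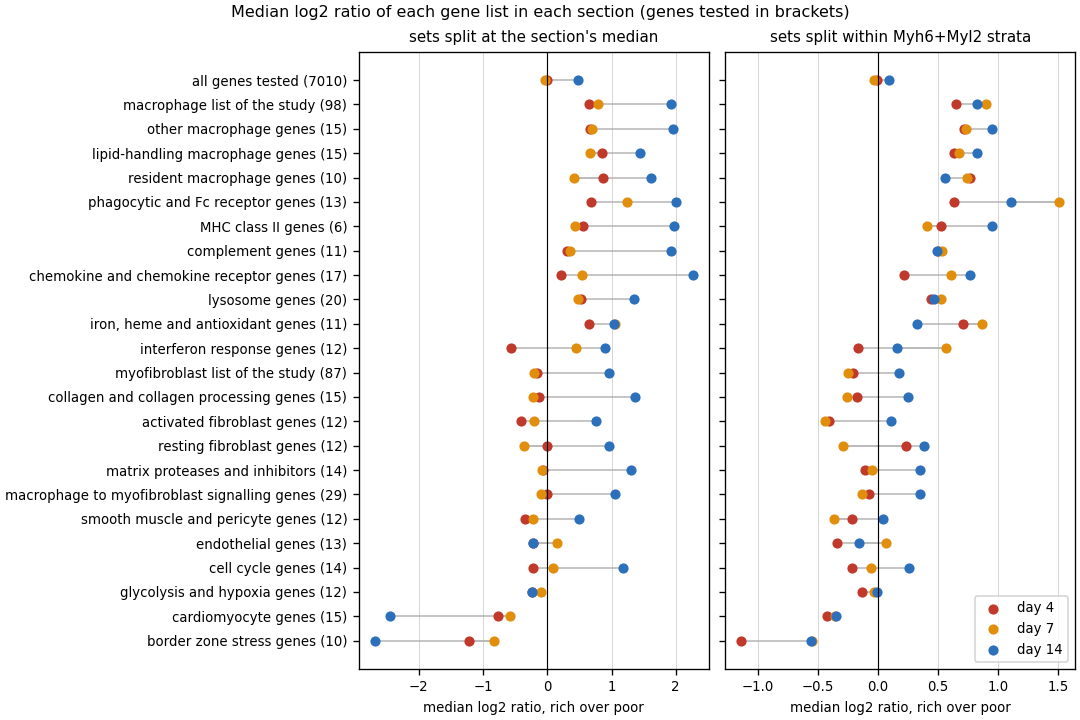
Points are the median log2 ratio of each gene list between the macrophage-rich and macrophage-poor sets of each section, with a pseudocount of 5 UMIs per 1000000, for sets at the section's median (left) and within Myh6+Myl2 strata (right). Macrophage lists lie right of 0 in the 3 sections under both splits, the study's macrophage list at 0.65, 0.79 and 1.92 on the left, and the collagen list moves from -0.13, -0.22 and 1.37 on the left to -0.18, -0.26 and 0.25 on the right.

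The macrophage-poor spots held more transcripts of cardiomyocytes, also between the sets split within strata of Myh6+Myl2 share. All 15 other cardiomyocyte genes were lower in the rich set in the 3 sections, where 11.2% of all genes were, and between the stratified sets 12 fell and none rose, beside 1.53% of all genes. Without day 4 the number that fell was 0, and without day 14 4. The median log2 ratio of the list was -0.76, -0.58 and -2.45 on days 4, 7 and 14, and -0.42, -0.36 and -0.35 within strata. These genes move with the Myh6+Myl2 share that chose the spots. Their fall is therefore not taken as a separate finding. That share stayed lower in the rich stratified set of each section, by least on days 4 and 7. It was 0.0979% against 0.103% on day 4, 0.162% against 0.169% on day 7 and 0.768% against 0.898% on day 14. Whether the fall goes with this remaining difference was not tested. Actc1, cardiac actin, was at 791 against 1732 on day 4, 981 against 1416 on day 7 and 1343 against 7470.4 on day 14, and Mb, myoglobin, at 449.6 against 681 on day 4, 786 against 1549 on day 7 and 1633 against 9513 on day 14. In the other kept spots Mb was at 10928, 14348 and 14369 CPM, nearest to the poor set of day 14.

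Genes that surviving cardiomyocytes beside an infarct switch on were lower in the macrophage-rich set. All 10 border zone stress genes fell between the stratified sets, beside 1.53% of all genes. Of them 8 were lower in all 3 stratified sections, beside 946 of all 7010 genes. Their median log2 ratio was -1.14, -0.55 and -0.56 on days 4, 7 and 14. Since 12 of 15 cardiomyocyte genes fell as well, lower stress genes cannot be told apart from less cardiomyocyte RNA. Without day 4 the calls were 3 and with DESeq2 4. Nppa (ENSMUSG00000041616, chr4:148000722-148002079), atrial natriuretic peptide, was at 1979 against 3487 on day 4, 352 against 800.0 on day 7 and 226 against 2438 on day 14 and fell (log2 fold change -0.89, SE 0.12, adjusted p = 5.34e-10). By bins it was at 3975, 2855, 2277 and 1647 on day 4, 944, 675, 415 and 293 on day 7 and 2973, 1373, 366 and 94.6 on day 14, lower at each step. Clu, the secreted chaperone clusterin, was at 1419.8 against 3247 on day 4, 1136 against 3181 on day 7 and 1779.9 against 1889 on day 14 (log2 fold change -0.64, SE 0.12, adjusted p = 1.8e-05), lower in the rich set on days 4 and 7 and level on day 14. Acta1, the skeletal actin of stressed hearts, was at 183 against 524 on day 4, 244 against 337 on day 7 and 120.4 against 1844 on day 14 (log2 fold change -0.94, SE 0.13, adjusted p = 6.51e-10). Ankrd1, a stretch-responsive protein of the sarcomere, was at 292 against 559 on day 4, 380.1 against 711 on day 7 and 297 against 2321 on day 14 (log2 fold change -0.44, SE 0.12, adjusted p = 0.0149).

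Under the same filter of UMIs and direction, the other large falls were mostly in genes that cardiomyocytes express. Some genes outside it fell more than these, such as Ighg2b, Pgf and Myh11, with log2 fold changes of -2.42, -1.48 and -1.29. Xirp2, a protein of the intercalated disc, was at 64.2 against 183 on day 4, 50.7 against 60.3 on day 7 and 45.2 against 202 on day 14 (log2 fold change -1.21, SE 0.21, adjusted p = 1.29e-06). Atp1b1, the beta subunit of the sodium pump, was at 42.8 against 183 on day 4, 78.3 against 149 on day 7 and 90.3 against 273 on day 14 (log2 fold change -1.0, SE 0.18, adjusted p = 7.48e-06), with the widest ratio on day 4. Fhl1, Rrad, Rcan1, Cryab, Ttn, Gja1 and Sorbs2 fell with log2 fold changes from -0.94 for Fhl1 to -0.79 for Sorbs2. Without day 4 Xirp2, Atp1b1, Rrad, Rcan1, Ttn, Gja1 and Sorbs2 were not called. DESeq2 did not call Xirp2, Atp1b1, Rrad, Rcan1, Gja1 and Sorbs2. The exception among the 12 largest falls was Ccl21a, a chemokine of lymphatic vessels that guides lymphocytes and dendritic cells, which was counted for 1 of several genes with this symbol (ENSMUSG00000094686) and may share reads with its copies. It was at 5.35 against 20.6 on day 4, 53.0 against 229 on day 7 and 1072 against 637 on day 14, lower in the rich set on days 4 and 7 and higher on day 14, and fell between the stratified sets (log2 fold change -0.89, SE 0.18, adjusted p = 7.94e-05) but was not called without day 7 or by DESeq2.

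Few scar genes were called in either direction, though more genes of the study's myofibroblast list were lower than higher in the rich set within strata. Of 15 collagen and collagen processing genes none was called in either direction between the stratified sets by edgeR or DESeq2 (0 higher and 1 lower at an unadjusted p under 0.05), and 2 were lower in the rich set in all 3 sections. At the section's median none was higher or lower in all 3. The median log2 ratio of the list was -0.13, -0.22 and 1.37 on days 4, 7 and 14 at the section's median and -0.18, -0.26 and 0.25 within strata where the Myh6+Myl2 share of the day 14 sets was closer. Of the study's myofibroblast list, 1 of 87 tested genes rose and 4 fell, beside 2.44% and 1.53% of all genes. The 4 were Cryab, Acta2, Tagln and Cthrc1. Cryab is counted among the border zone stress genes too, and Tagln among the smooth muscle and pericyte genes. At an unadjusted p under 0.05, 2 of the list were higher and 19 lower, beside 441 and 450 of all 7010 genes, and 3 were higher and 17 lower in all 3 stratified sections, beside 1179 and 946. The list had medians of -0.17, -0.20 and 0.96 and, within strata, -0.21, -0.25 and 0.18. In the spots of at most 0.3% Myh6+Myl2, 3 of the list were higher and 36 lower in all 3 sections. Of the 15 collagen genes 0 were higher and 6 lower there, beside 1045 and 1090 of all 7010 genes. These shifts of whole lists were not tested. Col1a1, the main collagen of scar, was at 10337 against 11300.3 on day 4, 15186 against 17556 on day 7 and 6755 against 2189 on day 14. In the spots with at most 0.3% Myh6+Myl2 in every section it was at 10461 against 10929 on day 4, 15003 against 18022 on day 7 and 7246 against 7177 on day 14. The sets differed by a log2 ratio of -0.063, -0.26 and 0.014 in each section there, and Col1a1 was not called in either comparison (log2 fold change -0.078, SE 0.12, adjusted p = 0.899 within strata). Col3a1 was at 15135 against 16121 on day 4, 18031 against 17026 on day 7 and 14586 against 5643 on day 14 and was not called either (adjusted p = 0.963). Fn1, the fibronectin of the early matrix, was at 4718 against 5074 on day 4, 4935 against 5213 on day 7 and 5313 against 1048 on day 14 (adjusted p = 0.927).

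A few genes of the activated fibroblast were lower in the macrophage-rich set. Of 12 such genes 2 fell and none rose, beside 1.53% and 2.44% of all genes, and neither was called without day 4 or by DESeq2. At an unadjusted p under 0.05, 0 were higher and 7 lower, beside 441 and 450 of all 7010 genes. The list had medians of -0.40, -0.45 and 0.11 within strata. Postn, periostin, which marks activated fibroblasts, was at 2145 against 2852 on day 4, 3723 against 5584 on day 7 and 1483 against 1127 on day 14, with a lower level in the rich set on days 4 and 7. It was not called within strata (log2 fold change -0.34, SE 0.12, adjusted p = 0.0938) and was called lower in the spots of at most 0.3% Myh6+Myl2 (log2 fold change -0.60, adjusted p = 0.000114), where its log2 ratio was -0.54, -0.63 and -0.73. By bins Postn was at 2932, 2748, 2394 and 1868 on day 4 and 5722, 5466, 4038 and 3422 on day 7, lower at each step. Acta2, the smooth muscle actin of myofibroblasts, was at 990.2 against 1376 on day 4, 511 against 568 on day 7 and 421 against 302 on day 14 and fell (log2 fold change -0.53, SE 0.13, adjusted p = 0.00226), and Tagln, of contractile cells, fell too (log2 fold change -0.62, SE 0.14, adjusted p = 0.00137). The smooth muscle genes Myh11 (log2 fold change -1.29, adjusted p = 0.00122) and Actg2 (log2 fold change -0.87, adjusted p = 0.0218) fell as well. Whether Acta2 and Tagln fell with fibroblast or with smooth muscle RNA was not tested. Cthrc1, another gene of activated fibroblasts, fell (log2 fold change -0.52, SE 0.14, adjusted p = 0.00784) and was at 498 against 657 on day 4, 583 against 673 on day 7 and 207 against 106 on day 14. Of 5 matrifibrocyte genes, which mark the late scar, 1 rose, Sfrp2 at 183 against 95.5 on day 4, 617 against 537 on day 7 and 467 against 183 on day 14 (log2 fold change 0.59, SE 0.15, adjusted p = 0.00261). The list as a whole had a median log2 fold change of -0.24 within strata. At an unadjusted p under 0.05, 1 of the 5 was higher and 2 were lower, beside 441 and 450 of all 7010 genes. Sfrp2 is also in the study's myofibroblast list, where it was the 1 gene that rose. Of 12 resting fibroblast genes none was called between the stratified sets by edgeR or DESeq2 (0 higher and 0 lower at an unadjusted p under 0.05). In the spots of at most 0.3% Myh6+Myl2, edgeR called 1 of 11 tested lower. Dcn, decorin, was at 1077 against 1114 on day 4, 2248 against 2603 on day 7 and 4075 against 1982 on day 14.

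Timp1 (ENSMUSG00000001131, chrX:20870166-20874735), the inhibitor of matrix metalloproteinases that the study follows, was at 2240.1 against 4184 on day 4, 1279 against 1286 on day 7 and 1268 against 265 on day 14 CPM. On day 4 the poor set held more than the rich set, on day 7 the sets were level, and on day 14 the rich set was higher, with log2 ratios of -0.90, -0.0081 and 2.26. By bins of the marker share Timp1 was lower at each step on day 4, at 4414, 3886, 2906 and 1497. It was highest in the middle bins on day 7, at 903, 1617, 1556 and 1013. On day 14 it was highest in the bin below the top and next in the top bin, at 143, 508, 1589 and 968. In the stratified sets it was at 2358 against 3995 on day 4, 1229 against 1347 on day 7 and 689 against 671 on day 14, level on day 14 and still apart on day 4. It was not called (log2 fold change -0.36, SE 0.12, adjusted p = 0.0739), and its fitted value changed sign between the rule's sets (0.23) and the strata. The difference of day 4 rests on 1 section, with 1674 and 3242 UMIs spread over 123 and 124 spots, and it has no replicate. Lrp1 is an endocytic receptor that takes up many secreted proteins. The study proposes that TIMP1 acts on fibroblast growth through it and not through CD63. Lrp1 was at 847 against 663 on day 4, 742 against 695 on day 7 and 978 against 358 on day 14 and was not called (log2 fold change 0.19, adjusted p = 0.586).

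**Figure D5:**
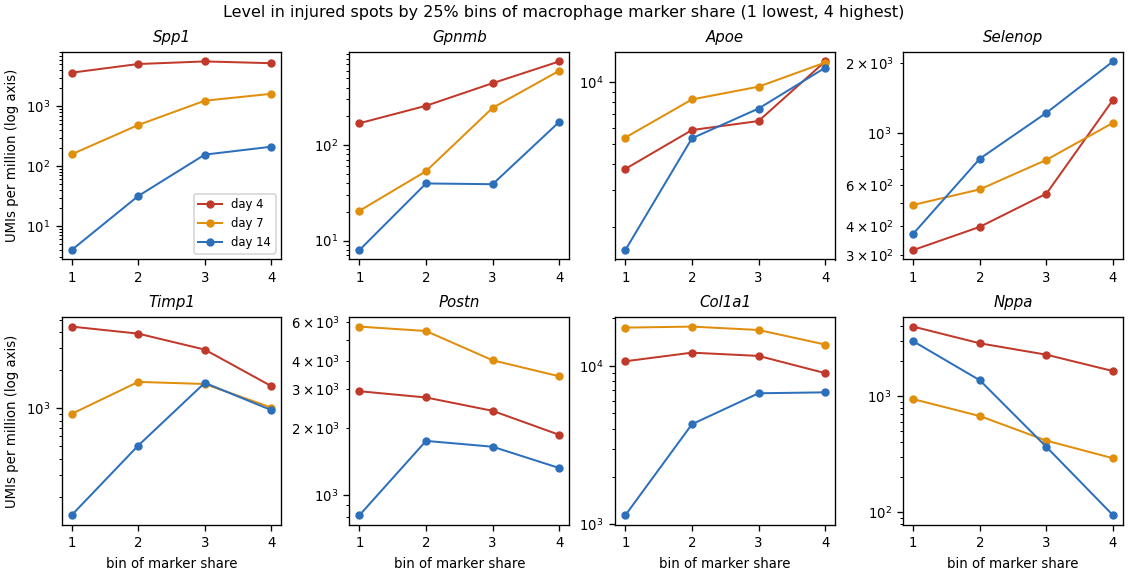
Lines join the level of 8 genes, in UMIs per 1000000 on a log axis, over bins of the injured spots of each section ordered by macrophage marker share, with 1 the lowest and 4 the highest. Apoe, Selenop and Gpnmb were highest in the top bin, while Timp1 and Postn on day 4 and Nppa in each section were lowest there, with Timp1 at 4414, 3886, 2906 and 1497.

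The ligands and receptors by which macrophages and myofibroblasts signal to each other were called in few cases. Of 29 tested, 2 rose and none fell, beside 2.44% and 1.53% of all genes. These were Spp1, above, and Csf1r, the receptor of colony stimulating factor 1 on macrophages, at 252 against 165 on day 4, 214 against 146 on day 7 and 309 against 98.2 on day 14 (log2 fold change 0.73, SE 0.16, adjusted p = 0.000339). Csf1, its ligand, was at 74.9 against 105 on day 4, 66.8 against 82.5 on day 7 and 124 against 61.0 on day 14 and was not called (log2 fold change -0.15, adjusted p = 0.883). Of the platelet-derived growth factors, which drive fibroblast growth, Pdgfa, Pdgfb and Pdgfc had log2 fold changes of -0.51, -0.35 and -0.60 within strata, with SEs of 0.26, 0.26 and 0.35. Their receptor Pdgfrb was at 222 against 229.7 on day 4, 235 against 251 on day 7 and 301 against 125 on day 14. Transforming growth factor beta, which turns fibroblasts into myofibroblasts, has 3 genes, none of them called by edgeR within strata. Tgfb1 was scarce, at 38.8 against 31.0 on day 4, 23.0 against 41.3 on day 7 and 15.1 against 5.31 on day 14, and Tgfb3, at 153 against 217 on day 4, 288 against 400.0 on day 7 and 248 against 117 on day 14, was lower in the rich set on days 4 and 7 and higher on day 14. The integrin subunit Itgav, which activates this factor, was at 93.7 against 152 on day 4, 113 against 197 on day 7 and 147 against 95.5 on day 14 and had the same order. Igf1, a growth factor of macrophages and fibroblasts, was at 120.4 against 52.9 on day 4, 200.4 against 206 on day 7 and 203 against 82.2 on day 14 and was not called (log2 fold change 0.37, adjusted p = 0.364).

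Of the proteases and inhibitors that remodel the matrix, 1 of 14 fell and none rose, beside 1.53% and 2.44% of all genes. Mmp9, the gelatinase of myeloid cells, was at 209 against 80.0 on day 4, 59.9 against 54.0 on day 7 and 64.0 against 7.96 on day 14 and was not called (log2 fold change 0.52, adjusted p = 0.241), and Mmp2, the gelatinase of fibroblasts, was at 554 against 605 on day 4, 1636 against 1845 on day 7 and 1723 against 737 on day 14. Endothelial genes had 1 fall among 13 and smooth muscle and pericyte genes 2 among 12, beside 1.53% of all genes, with no rise in either list. Of 14 cell cycle genes and 12 genes of glycolysis and hypoxia none was called by edgeR or DESeq2, and at an unadjusted p under 0.05 there were 0 and 1. Mki67, the marker of dividing cells, was at 91.0 against 101 on day 4, 43.8 against 41.3 on day 7 and 15.1 against 10.6 on day 14. Mesothelial genes, of the epicardium, and adipocyte genes had no call among 3 and 1 tested.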

How the data were processed

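Visium spot counts of 4 heart sections were analysed, 3 of them for the comparison. Per the submitters' processing notes Space Ranger 1.3.0 and mm10 were used, and the deposited matrices hold raw UMI counts of each gene in each spot under tissue. Spots with more than 1% of UMIs in 8 hemoglobin genes, under 500 UMIs, or with 10 or more UMIs of Myh1, Tnnc2, Tnnt3 and Mylpf were left out. Members and gene lists were chosen with earlier results of these data known. Spots were not treated as replicates: UMIs were summed per section and set into 6 libraries of 265742 to 774932 UMIs. Genes with 60 or more UMIs were fitted with edgeR 4.0.16 (TMM, robust quasi-likelihood, section as block, R 4.3.3), without the genes of the rule and of the spot filters, with Benjamini-Hochberg adjustment of the p-values over all 7010 genes. The labels name separate days and not litters, and each day is 1 mouse, so spread between mice and between days cannot be told apart. Within strata the p-values rest on a spread pooled over genes and, at the median gene, not on the gene's own spread between these 3 mice. SEs are the fold change over the square root of F. DESeq2 1.42.0 and the other settings are given with the limits. Levels are UMIs per 1000000 UMIs (CPM) of the summed library, with exact Poisson 95% intervals and conditional intervals of ratios, which cover counting error only. Named genes were the 12 largest rises and 12 largest falls called with the same direction in 3 sections and 200 or more UMIs, the 3 most abundant genes of each list, genes the study names and the signalling list. As the sets at the median gave no calls, the first rule was applied to the split within Myh6+Myl2 strata after that was seen. The counts of list members that rose or fell were taken from that split for the same reason. A few results are not reported here. Of the list members, 4 were not found in the gene names of the files. Coordinates are of GENCODE vM21 on GRCm38. Spot positions were not used here, and the 4 sections share 1572 to 1918 slide barcodes per pair, which mark array positions.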

Additional observations from a re-analysis of the deposited data

Results flagged for a closer look

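For 15 named genes, the log2 ratio between the macrophage-rich and macrophage-poor sets pointed one way in 1 section and the other way in another, with 95% counting intervals that left out 0 in both. The difference was not tested, since there was 1 mouse a day. In all 15 the value was below 0 on day 4 or 7 and above 0 on day 14. Among the collagens this was Col1a1 at -0.13 on day 4 and -0.21 on day 7 and 1.63 on day 14, Col1a2 at -0.14 on day 4 and -0.14 on day 7 and 1.45 on day 14 and Col3a1 at -0.091 on day 4 and 0.083 on day 7 and 1.37 on day 14. Among other genes of the activated fibroblast it was Fn1 at -0.10 on day 4 and 2.34 on day 14, Postn at -0.41 on day 4 and -0.58 on day 7 and 0.40 on day 14, Acta2 at -0.47 on day 4 and 0.48 on day 14 and Tgfb3 at -0.51 on day 4 and -0.47 on day 7 and 1.09 on day 14. Among proteases and inhibitors it was Timp1 at -0.90 on day 4 and 2.26 on day 14, Timp2 at -0.26 on day 7 and 1.67 on day 14 and Mmp2 at -0.17 on day 7 and 1.23 on day 14. Among genes of the resting fibroblast it was Dcn at -0.21 on day 7 and 1.04 on day 14, Lum at -0.23 on day 7 and 1.12 on day 14 and Mfap4 at -0.25 on day 7 and 0.88 on day 14. The chemokines were Ccl5 at -2.41 on day 4 and 2.38 on day 7 and 2.24 on day 14, and Ccl21a at -1.95 on day 4 and -2.11 on day 7 and 0.75 on day 14. These are ratios of CPM without TMM. On day 14 the median log2 ratio of all genes tested, with a pseudocount of 5, was 0.48. Acta2 and Postn were not above that value on day 14. The Myh6+Myl2 share of the sets was 0.287% against 1.22% on day 14 and closer on the other days. With spots of at most 0.3% in every section, the log2 ratio of day 14 was 0.014 for Col1a1, -0.73 for Postn, -0.17 for Timp1, 0.29 for Fn1 and -2.13 for Ccl21a.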

How the results depend on the processing

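Of the 7010 genes, none was called with the rule, and the count depended on how the spots were taken. The lowest 10% of spots gave 133 higher and 63 lower of 5359, the split within strata of depth 90 and 84, the split within strata of Myh6+Myl2 171 and 107, and the added spots of at most 0.3% Myh6+Myl2 165 and 109. Total UMIs in place of TMM gave 44 and 47, and moved the median of all genes to 0.12 from -0.02. DESeq2 gave 14 and 21, the split on C1qb, Csf1r, Tyrobp and Fcer1g 6 and 1, genes of at least 10 UMIs 1 and 1. Of the rich spots by these other markers, 67.2%, 68.2% and 70.4% were in the rule's rich set on days 4, 7 and 14. Without Lyz2 the shares were 86.4%, 76.7% and 78.3%, so which spots count as rich depends on the markers. The lowest 20% of spots gave 0 and 4, hemoglobin of at most 0.5% 0 and 1, spots thinned to 500 UMIs 0 and 1, and the split without Lyz2 1 and 0. The split without C1qa, Cd68 or Ctss, the fit with no section block, top and bottom 33% of spots, spots of at least 1000 UMIs and genes of at least 1000 UMIs gave none. With a section left out, the rule gave 0, 5 and 146 genes higher and 0, 49 and 95 lower without days 4, 7 and 14, and the strata 62, 102 and 146 higher and 13, 81 and 80 lower. Further settings of the strata, added after seeing the data, gave 40 and 14 with DESeq2 and 169 and 80 with total UMIs. The median log2 fold change of the study's macrophage list lay between 0.68 and 1.33 over all settings. That of the cardiomyocyte genes was -1.52 with the rule, -0.48 within strata, -0.49 with DESeq2 and -0.42 with total UMIs there, and -0.50 to -0.45 with a section left out. Few named genes changed sign. Timp1, at 0.23 with the rule, was at -0.50 in the lowest 10%, -0.36 at up to 0.3% Myh6+Myl2, -0.28 with no block, -0.13 on other markers, -0.056 thinned, -0.36 in strata, -0.36 there with DESeq2, -0.32 with total UMIs and -0.50 to -0.11 with a section left out, and at -0.46 to 0.84 with the rule and a section left out. Col1a1, at 0.24, was at -0.088 in the lowest 10%, -0.081 at up to 0.3%, -0.078 in strata, -0.086 and -0.034 there with DESeq2 and total UMIs, and -0.22, -0.011 and 0.028 there and, with the rule, -0.14 to 0.49 with a section left out. Fn1, at 0.52, was at -0.061, -0.069 and -0.016 in strata with edgeR, DESeq2 and total UMIs, and -0.16 to 0.0076 and -0.064 to 0.86 with a section left out. Col3a1, at 0.27, was at -0.050 to 0.14 in strata with a section left out. Acta2 and Tagln, below 0 with the rule, were at 0.40 and 0.26 in the lowest 20% and 0.24 and 0.062 with spots of at least 1000 UMIs, where Postn was at 0.089. The cause was not tested. The section block pairs the 2 sets of each mouse. No paired analysis was possible because the replicate numbers are all 1, other than through that block. Genes under 60 UMIs were left out by choice, and with 2 residual degrees of freedom small differences could be missed. Intervals cover counting error only.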

Other observations

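Of the 171 genes that rose within strata, 75 were in no list, and of the 107 that fell, 78. The genes named here from them were chosen after their values were seen. Cd5l and Fcna, secreted proteins of scavenging macrophages, were at 42.8 against 18.1 on day 4, 46.1 against 3.17 on day 7 and 30.1 against 2.65 on day 14 CPM and at 36.1 against 6.45 on day 4, 149.7 against 44.4 on day 7 and 237 against 21.2 on day 14 (log2 fold change 2.74, adjusted p = 1.18e-07 for Cd5l, and log2 fold change 1.72, adjusted p = 2.69e-08 for Fcna). Ednrb, an endothelin receptor, rose (log2 fold change 1.02, adjusted p = 0.0162) and was level on day 7, at 58.9 against 27.1 on day 4, 36.9 against 41.3 on day 7 and 94.1 against 23.9 on day 14. Il1rn, the interleukin 1 receptor antagonist, was level on day 4 and apart on days 7 and 14, at 88.3 against 83.9 on day 4, 104 against 9.52 on day 7 and 41.4 against 5.31 on day 14 (log2 fold change 0.89, adjusted p = 0.017). B2m and H2-K1, of MHC class I, were at 1713 against 1287 on day 4, 1919 against 1086 on day 7 and 1776 against 737 on day 14 and at 1056 against 782 on day 4, 1092 against 835 on day 7 and 881 against 321 on day 14.

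Among the genes that fell and are in no list were Inhba, Pgf and Gdf15, whose products are secreted, and Scx and Serpinb1a. Whether they fell with the muscle left in the poor spots was not tested. Inhba, the activin A subunit, was at 32.1 against 114 on day 4, 27.6 against 57.1 on day 7 and 15.1 against 13.3 on day 14 (log2 fold change -1.03, adjusted p = 0.00796), highest in the poor set of day 4. Pgf, placental growth factor, fell (log2 fold change -1.48, adjusted p = 0.00506), as did Gdf15, a stress-induced cytokine, at 28.1 against 38.7 on day 4, 11.5 against 31.7 on day 7 and 3.76 against 42.4 on day 14 (log2 fold change -1.21, adjusted p = 0.0256). Scx, a transcription factor of tendon, was at 13.4 against 43.9 on day 4, 94.5 against 108 on day 7 and 37.6 against 26.5 on day 14 (log2 fold change -0.91, adjusted p = 0.0259), with its difference on day 4. Serpinb1a, an inhibitor of neutrophil proteases, was at 93.7 against 266 on day 4, 46.1 against 76.2 on day 7 and 64.0 against 15.9 on day 14.

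The day 1 section, which lies outside the rule, was split in the same way. Its 283 injured spots had a median marker share of 0.0786%. The macrophage list of the study had a median log2 ratio of 0.97 there, with Marco at 93.8 against 4.55 CPM and Spp1 at 976 against 299. Timp1 was at 1852 against 1789, a log2 ratio of 0.050 with a counting interval from -0.061 to 0.16. Cfd, a gene of fat, was at 593 against 52.3.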
